A study of Macaca mulatta with 8 samples.

Results

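Glycolysis and hypoxia response genes were examined in primary rhesus macaque microglia that had been activated through Toll-like receptor 4. The set was a list of 38 gene symbols covering glucose and lactate transporters, glycolytic enzymes, regulators of glycolytic flux and of pyruvate use, HIF1A with its prolyl hydroxylases, and genes known as HIF targets. A member was any gene of the deposited count files that carried one of these symbols. There were 36 members among 35432 genes, since the symbols GPI and PKM did not occur in the files. All 36 passed the filter on low counts, which kept 12131 genes.

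Cells convert glucose to pyruvate through the enzymes of glycolysis, and activated macrophages and microglia lean strongly on this route, releasing much of the pyruvate as lactate. Hypoxia-inducible factor 1 (HIF-1) is a transcription factor whose alpha subunit, encoded by HIF1A, is marked for destruction by oxygen-dependent prolyl hydroxylases. When it escapes destruction, as it does at low oxygen and in lipopolysaccharide-treated macrophages, it switches on glucose transporters, most glycolytic enzymes, pyruvate dehydrogenase kinases and genes such as VEGFA, ADM and BNIP3.

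The study asked how signaling through P2RY6, a receptor for extracellular UDP, shapes the response of microglia to Toll-like receptor 4. Microglia were isolated from frontal subcortical white matter of adult, outbred macaques without neurological disease, cultured for 8 days with M-CSF (10 ng/mL in the sample labels, a dose that differs from that in the study's methods), and exposed at day 7 for 16 h to 10 µg/mL ultrapure lipopolysaccharide (uLPS), either alone or 1 h after addition of 5 µM of the P2RY6 antagonist MRS2578. Every library therefore came from uLPS-exposed cells, and there was no library of unexposed cells or of MRS2578 alone. The 8 libraries were 1 per condition from each of 4 donors, R07110 (male, 13 years), R12016 (male, 9 years), R02046 (female, 19 years) and R14143 (female, 6 years). Values below are CPM, the counts of a gene per 1000000 counts of its library, scaled between libraries by the TMM method, and a within-donor difference is the log2 CPM with uLPS and MRS2578 minus that with uLPS alone, so that positive values are higher with MRS2578.

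The labels of donor R02046 were uncertain. Of the 8 columns in the study's own list of normalised values, 6 matched the library with the same label and the 2 columns of R02046 matched each other's library. Tests of MRS2578 were therefore run in 3 ways: under the labels as deposited, with the R02046 pair exchanged, and without R02046. Total counts ran from 9231109 to 32790348 per library, and R02046 with uLPS was the smallest. Microglia and macrophage markers summed to between 3620 and 5338 CPM in every library, whereas the 6 lymphocyte markers together stayed at or below 0.517 CPM. Within the first list CSF1R was highest, at a mean of 1247 CPM, while TMEM119 reached at most 0.316 CPM and CX3CR1 2.21 CPM. Oligodendrocyte markers summed to 223 to 407 CPM, endothelial and mural markers to 157 to 295 CPM and astrocyte markers to 88.6 to 205 CPM. The 5 fibroblast markers summed to 1190 CPM in R14143 with uLPS and to 430 CPM in its MRS2578 library, against 90.1 to 529 CPM in the other 6 libraries. In such bulk samples, fewer cells of a type and less RNA per cell cannot be told apart.

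With uLPS alone the set spanned almost the whole range of expression in these cells. Levels of different genes were compared as CPM per kilobase of exon, with exon lengths from the NCBI annotation of Mmul_10. By this measure 15 members lay at or above 100, 11 between 10 and 100, 8 between 1 and 10, and 2 below 1, and 14 members stood among the top 5% of the 10601 tested genes that had a length. GAPDH, the glyceraldehyde-3-phosphate dehydrogenase, was highest at 1486 ± 116 CPM per kilobase (SD, n = 4, as for the levels below), rank 26 of these genes. ENO1, the main enolase outside neurons, followed at 844 ± 64.0, then ALDOA (aldolase A, 381 ± 8.46) and PGK1 (phosphoglycerate kinase, 377 ± 31.6). The neuronal-type glucose transporter SLC2A3 reached 361 ± 81.7, lactate dehydrogenase A (LDHA) 294 ± 38.7 and the phosphoglycerate mutase PGAM1 253 ± 59.0. HIF1A itself stood at 118 ± 27.0, rank 455. The ranges of adjacent genes in this order overlapped over the 4 uLPS libraries for 30 of the 35 neighbouring pairs, so that ALDOA and PGK1, for example, could not be ordered. Clear steps lay between GAPDH and ENO1, between ENO1 and ALDOA, between PGAM1 and PFKL, between SLC2A6 and HK2, and between MXI1 and EGLN3.

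**Figure D1:**
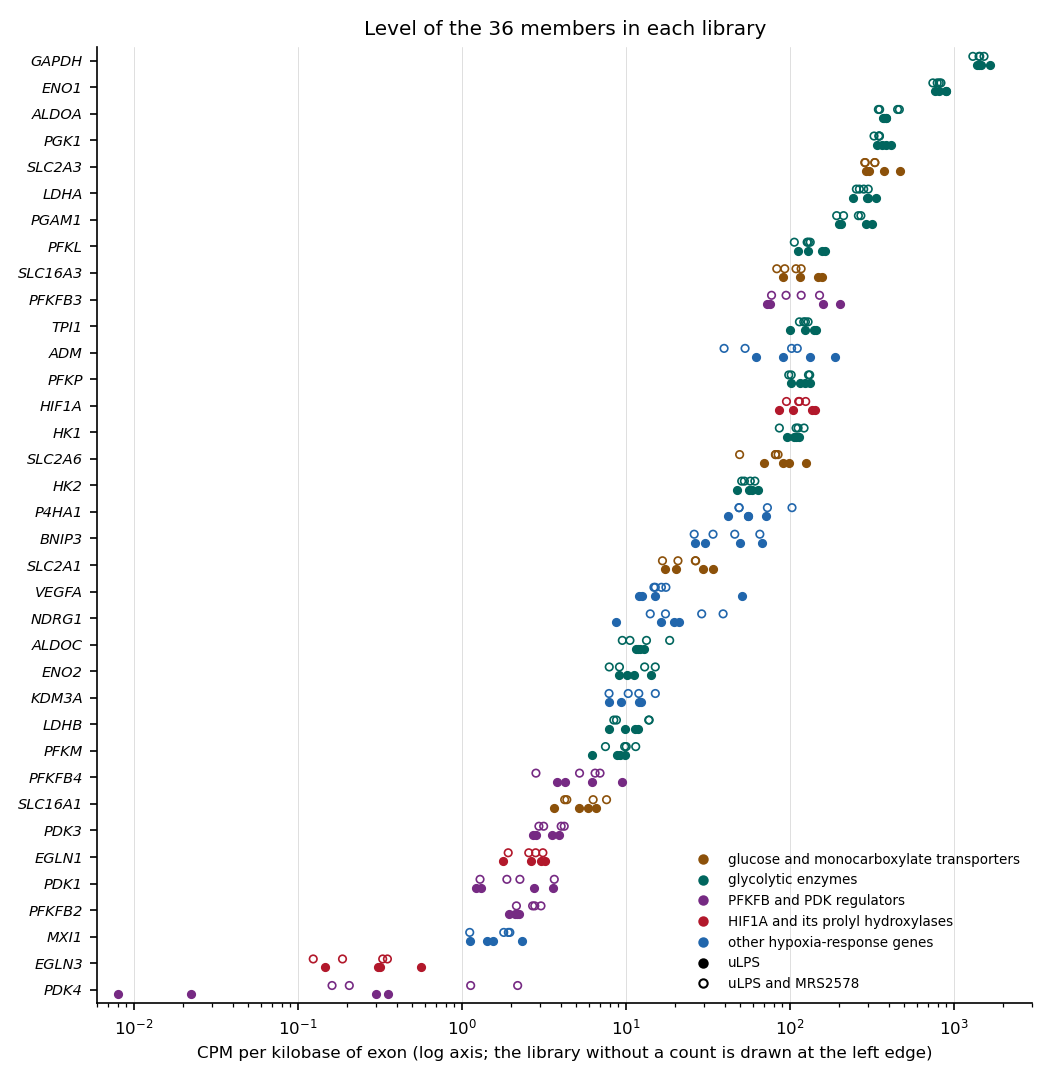
Level of each of the 36 members in every library, as CPM per kilobase of exon on a log axis, ordered by the mean with uLPS and coloured by role. Filled points are the 4 uLPS libraries and open points the 4 libraries with uLPS and MRS2578. GAPDH and ENO1 are highest, EGLN3 and PDK4 lowest, and filled and open points of a gene overlap throughout.

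Within most enzyme families a single form predominated. ALDOA made up 96.9% ± 0.0916 of the aldolase transcripts (ALDOA and ALDOC) per kilobase with uLPS, ENO1 96.7% ± 1.23 of the enolases (ENO1, ENO2 and the muscle form ENO3, which is not a member), and LDHA 96.5% ± 0.934 of LDHA and LDHB (SD, n = 4). LDHA is the form that favours conversion of pyruvate to lactate, and SLC16A3, the lactate exporter MCT4, made up 95.7% ± 1.76 of the sum of SLC16A3 and SLC16A1 (MCT1). The phosphofructokinases, which catalyse the committed step of glycolysis, were mixed, with PFKL at 52.4% ± 3.61, PFKP at 44.3% ± 2.84 and the muscle form PFKM at 3.26% ± 0.937. Hexokinase transcripts were 57.5% ± 4.56 HK1 and 30.8% ± 4.52 HK2, with HK3 at 8.90% ± 4.90 and HKDC1 at 2.82% ± 1.66, neither of them a member. PFKFB3, the form of the bifunctional enzyme that most strongly drives production of the phosphofructokinase activator fructose 2,6-bisphosphate, held 93.6% ± 1.48 of the PFKFB transcripts against 4.54% ± 0.684 for PFKFB4 and 1.89% ± 0.902 for PFKFB2. SLC2A3 held 74.6% ± 5.25 of the 3 member glucose transporters, SLC2A6 20.2% ± 5.45 and the widely expressed SLC2A1 only 5.18% ± 1.02. With MRS2578, ALDOA made up 96.9% ± 0.577, LDHA 96.0% ± 1.27, PFKFB3 92.9% ± 2.23 and SLC2A3 76.2% ± 3.52 of their families, each within 1 SD of its share with uLPS.

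Pyruvate dehydrogenase kinases, which inhibit the pyruvate dehydrogenase complex, were low. PDK3 stood at 3.26 ± 0.577 CPM per kilobase with uLPS, PDK1 at 2.23 ± 1.16 and PDK4 at 0.169 ± 0.184. EGLN1, the main oxygen-sensing prolyl hydroxylase, was at 2.66 ± 0.639, and the hypoxia-induced EGLN3 was at 0.333 ± 0.172.

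Donors differed far more in some members than in others. With uLPS, the coefficient of variation over the 4 donors was 2.22% for ALDOA, 4.97% for ALDOC, 7.58% for ENO1 and 7.81% for GAPDH. At the other end it was 46.2% for ADM, 50.0% for PFKFB3, 52.1% for PDK1, 83.5% for VEGFA and 109% for PDK4. The median over members, 22.2%, was close to the 21.4% over all genes tested. The 15 glycolytic enzymes together took 0.844% to 0.973% of all counts in each library, and their summed level was 9211 ± 539 CPM with uLPS and 8903 ± 288 CPM with MRS2578 (SD, n = 4). These group values differed by less than 1 SD of the uLPS libraries, and the order of the groups turned with the scaling, since the mean share of all counts was 0.904% with uLPS and 0.908% with MRS2578.

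The stretches just upstream of 5 members are shown because those genes carry the levels and differences described below: PGK1 as a highly expressed enzyme, SLC2A6 and ADM as 2 of the 4 members lower with MRS2578 in every donor other than R02046, PDK4 as the member with the largest fitted difference, and BNIP3 as a gene with opposite differences in 2 donors. Each is the 300 bases ending 1 base before the RefSeq start of the gene in Mmul_10, read 5′ to 3′ on the strand of the gene, and capitals mark ACGTG or GCGTG, the cores of known HIF binding sites, or their reverse complements CACGT and CACGC, with overlapping matches merged. The windows are chrX:74831478-74831777 (plus strand) for PGK1, chr15:4773730-4774029 (plus) for SLC2A6, chr3:110533612-110533911 (plus) for PDK4, chr9:132447270-132447569 (minus) for BNIP3 and chr14:55376883-55377182 (minus) for ADM.
PGK1: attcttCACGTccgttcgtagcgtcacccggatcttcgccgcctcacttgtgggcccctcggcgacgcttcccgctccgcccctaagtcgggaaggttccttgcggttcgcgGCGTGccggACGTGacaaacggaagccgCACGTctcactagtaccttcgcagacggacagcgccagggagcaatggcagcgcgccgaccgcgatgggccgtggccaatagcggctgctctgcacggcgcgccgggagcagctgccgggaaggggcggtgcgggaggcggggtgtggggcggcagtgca
SLC2A6: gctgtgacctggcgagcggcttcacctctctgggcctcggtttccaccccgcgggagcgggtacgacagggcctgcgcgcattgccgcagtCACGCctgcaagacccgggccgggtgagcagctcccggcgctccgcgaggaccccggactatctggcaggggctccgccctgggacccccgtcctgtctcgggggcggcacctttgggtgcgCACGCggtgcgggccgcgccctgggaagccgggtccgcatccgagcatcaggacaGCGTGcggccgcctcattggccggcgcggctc
PDK4: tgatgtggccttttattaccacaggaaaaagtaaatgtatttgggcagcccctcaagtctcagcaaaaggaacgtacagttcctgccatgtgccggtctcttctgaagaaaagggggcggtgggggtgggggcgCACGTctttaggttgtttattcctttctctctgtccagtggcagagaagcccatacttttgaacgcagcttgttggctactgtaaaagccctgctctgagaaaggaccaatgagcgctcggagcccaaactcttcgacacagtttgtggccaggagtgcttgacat
BNIP3: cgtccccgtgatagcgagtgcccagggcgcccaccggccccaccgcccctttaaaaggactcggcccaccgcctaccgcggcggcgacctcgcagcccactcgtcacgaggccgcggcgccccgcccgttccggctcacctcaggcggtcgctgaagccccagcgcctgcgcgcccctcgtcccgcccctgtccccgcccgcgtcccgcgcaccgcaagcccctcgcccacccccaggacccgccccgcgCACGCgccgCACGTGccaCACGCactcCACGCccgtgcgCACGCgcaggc
ADM: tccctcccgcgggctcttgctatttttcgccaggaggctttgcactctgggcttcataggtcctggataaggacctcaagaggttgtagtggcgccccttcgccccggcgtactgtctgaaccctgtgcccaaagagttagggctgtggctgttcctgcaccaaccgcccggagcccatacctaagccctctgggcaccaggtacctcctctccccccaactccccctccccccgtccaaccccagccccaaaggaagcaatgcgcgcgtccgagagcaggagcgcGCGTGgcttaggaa
BNIP3 held 6 matches, with the overlapping CACGT and ACGTG of its stretch CACGTG counted as 2. PGK1 held 4, SLC2A6 held 3, and PDK4 and ADM held 1 each. Over all members, 24 of 36 windows (66.7%) held either core, against 51.1% of the 20769 windows of protein-coding genes, and 15 members (41.7%) held ACGTG, against 21.6%. Known HIF targets were part of the list by choice, and the windows were not matched for base composition, so these shares are no test. A match is only a run of letters. The starts of SLC2A6, PDK4, BNIP3 and ADM, and of most members, are model predictions that may differ from those used in microglia.

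No member passed edgeR's quasi-likelihood test for an effect of MRS2578 over the 4 donors, with either labelling of R02046, or without R02046, whereas 2 to 5 members passed in some other settings with the exchange. Under the deposited labels this test, blocked on the donor, called 0 of 36 members and 0% of all 12131 genes at an adjusted p of 0.05, and at an unadjusted p under 0.05 it had 1 member and 5.14% of genes. With these labels edgeR's likelihood ratio test called 5 genes and DESeq2's Wald test 1 gene, none of them a member. With the R02046 libraries exchanged the quasi-likelihood test again called 0 members, against 0.618% of all genes (75), and at an unadjusted p under 0.05 it had 7 members, 3 higher and 4 lower, against 16.4% of genes, 6.86% higher and 9.59% lower. With the exchange the likelihood ratio test called 616 genes (5.08%) and the Wald test 569 (4.69%), and each called 2 members, ADM and SLC2A6. With R02046 left out the quasi-likelihood test called 0 members and 0% of 12295 genes, and 4 members, 1 higher and 3 lower, were at an unadjusted p under 0.05, against 13.6% of genes, 5.73% higher and 7.86% lower. The exchange with R14143 also left out gave 5 called members (ADM, SLC2A6, PDK4, NDRG1 and P4HA1) against 7.57% of genes, whereas leaving out R07110 or R12016 in its place gave 0. The shares of members at an unadjusted p under 0.05 were thus near those of all genes. The median log2 fold change over members was -0.03 with the deposited labels (-0.01 over all genes), 0.0021 with the exchange (0.0012 over all genes) and -0.03 without R02046 (-0.0035 over all genes). Fitted changes were above 0 for 14 of 36 members as labelled (47.9% of all genes) and for 18 with the exchange (50.2%). For 31 of 36 members (86.1%) the fitted change with the deposited labels was smaller than the SD between donors with uLPS. The same held for 84.3% of all genes. With the exchange it held for 27 members (75%) and for 79.9% of all genes. This SD describes how donors differed and is no test, since the fit compares libraries within donors. No member had its 4 MRS2578 libraries all above or all below its 4 uLPS libraries, under the deposited labels (1.08% of all genes did) or with the exchange (2.97%).

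**Figure D2:**
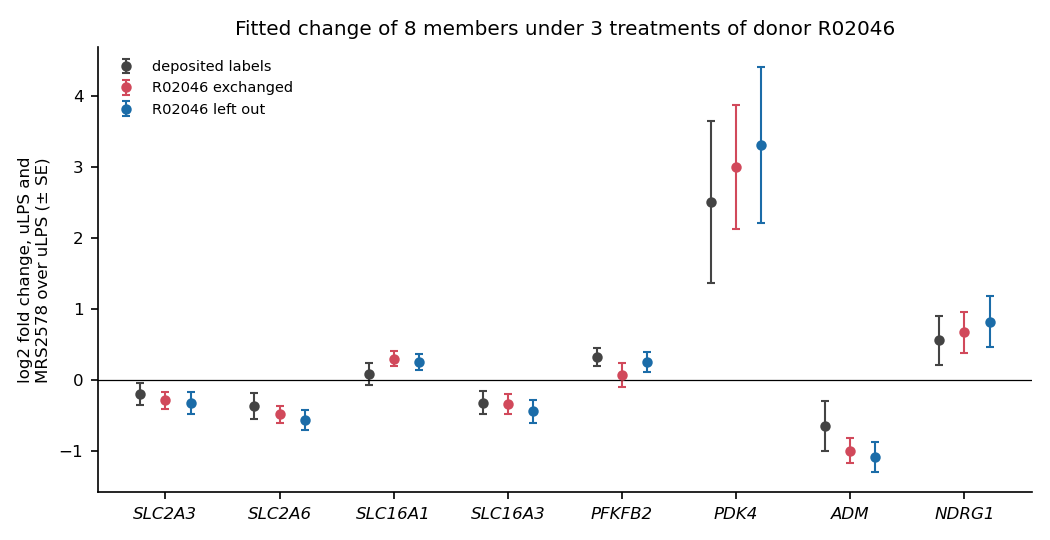
Fitted log2 fold change (uLPS and MRS2578 over uLPS) with its standard error for the 8 members with an unadjusted p under 0.05 in at least 1 of the 3 fits, with the deposited labels, with R02046 exchanged and with R02046 left out. ADM is lowest at -0.65, -0.997 and -1.09, and PDK4 highest at 2.504, 3.00 and 3.31 with the widest errors.

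Of the 5 transporters, SLC2A3, SLC2A6 and SLC16A3 were lower with MRS2578 in every donor other than R02046. SLC2A6, a lysosomal glucose transporter family member induced in inflammatory macrophages, was at 324, 233, 178 and 255 CPM with uLPS in R07110, R12016, R02046 and R14143, the order of donors used throughout. With MRS2578 it was at 219, 127, 211 and 212 CPM. The groups overlapped, and R12016 with MRS2578 lay well below the other libraries. The log2 fold change was -0.37 ± 0.18 (SE) with the deposited labels (adjusted p = 0.878), -0.49 ± 0.12 with the exchange (adjusted p = 0.107) and -0.57 ± 0.14 without R02046 (adjusted p = 0.201).

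SLC2A3, the high-affinity glucose transporter GLUT3, was at 698, 1082, 675 and 870 CPM with uLPS. With MRS2578 it was at 660, 665, 760 and 761 CPM. Only R12016 differed by much, by -0.70 on the log2 scale, and the fitted change was -0.20 ± 0.16, -0.29 ± 0.12 with the exchange (adjusted p = 0.293) and -0.33 ± 0.15 without R02046. The lactate exporter SLC16A3 was at 686, 890, 540 and 943 CPM with uLPS. It was at 652, 498, 557 and 701 CPM with MRS2578, lower in R12016 and R14143 by 0.84 and 0.43 on the log2 scale and nearly level in the other donors. Its fitted change was -0.32 ± 0.17, -0.34 ± 0.14 with the exchange (adjusted p = 0.281) and -0.45 ± 0.17 without R02046, and its exons overlap those of CSNK1D on the opposite strand in the annotation.

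SLC16A1, a transporter that carries lactate in either direction, was at 27.8, 15.5, 24.7 and 22.04 CPM with uLPS and at 32.2, 18.5, 17.9 and 26.7 CPM with MRS2578. It was higher with MRS2578 in the donors other than R02046, by 0.22 to 0.28 on the log2 scale, and 0.46 lower in R02046 as labelled. The fitted change was 0.08 ± 0.16, 0.30 ± 0.11 with the exchange (adjusted p = 0.227) and 0.25 ± 0.11 without R02046 (adjusted p = 0.421). SLC2A1, the glucose transporter GLUT1, had no common direction, with differences from -0.51 in R12016 to 0.41 in R07110.

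None of the 15 glycolytic enzymes reached an unadjusted p under 0.05 in any of the 3 fits. Their fitted log2 fold changes with the deposited labels ran from -0.17 (PFKL) to 0.20 (PFKM), with 5 above 0 and 10 below, and the median was -0.04. With the exchange they ran from -0.21 (HK2) to 0.20 (ALDOC), with 6 above 0 and 9 below. GAPDH was at 2146, 2208, 2084 and 2479 CPM with uLPS. It was at 2294, 2161, 1961 and 2140 CPM with MRS2578, a fitted log2 change of -0.06 ± 0.14, -0.01 ± 0.11 with the exchange and -0.05 ± 0.14 without R02046. LDHA was at 523, 653, 641 and 726 CPM with uLPS. With MRS2578 it was at 575, 551, 611 and 651 CPM, a fitted change of -0.08 ± 0.11, -0.05 ± 0.10 with the exchange and -0.09 ± 0.12 without R02046. The largest within-donor difference of any enzyme was that of ALDOC, the brain form of aldolase, at 0.68 in R07110. ALDOA was higher by 0.29 and 0.31 in R07110 and R12016 and lower by 0.16 and 0.13 in R02046 and R14143, and an uncharacterised gene on the same strand overlaps its exons. PFKM was higher with MRS2578 in every donor as labelled, by 0.0014 in R02046 and up to 0.38 in R14143, and its exons overlap those of SENP1 on the opposite strand. The exons of ENO2 overlap those of LRRC23 on the same strand. Since uniquely mapped reads alone were counted, reads shared with the near-identical processed copies that GAPDH, ENO1, PGK1, LDHA, PGAM1 and TPI1 are known to have would be missing from these counts.

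Among the regulators of flux, PFKFB2 was the one member at an unadjusted p under 0.05 with the deposited labels. It encodes a bifunctional enzyme regulated by phosphorylation, and was at 22.1, 19.8, 21.4 and 22.8 CPM with uLPS and at 21.9, 27.5, 30.9 and 28.3 CPM with MRS2578. The uLPS libraries lay close together and 3 of the 4 MRS2578 libraries lay above them. The log2 fold change was 0.32 ± 0.13 (adjusted p = 0.878), but 0.07 ± 0.17 with the exchange and 0.25 ± 0.14 without R02046. The unadjusted p under 0.05 thus rested on R02046 as labelled, whereas the change kept its direction without that donor. Its exons overlap those of YOD1 on the opposite strand. PFKFB3 varied more between donors than with MRS2578, from 385 to 1069 CPM with uLPS, and its within-donor differences ran from -0.78 in R12016 to 0.32 in R02046. PFKFB4 was 0.61 higher with MRS2578 in R07110 and 0.26 to 0.44 lower in the other donors.

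PDK4, the starvation- and glucocorticoid-induced pyruvate dehydrogenase kinase, had the largest fitted difference and the lowest mean level with uLPS. It had 2, 0, 9 and 16 reads with uLPS and 76, 94, 6 and 10 reads with MRS2578. In CPM these were 0.0609, 0, 0.960 and 0.812 against 3.07, 5.94, 0.439 and 0.559. The gene was thus far higher with MRS2578 in R07110 and R12016 and somewhat lower in R02046 and R14143. In R07110 the ratio was 50.5 (95% exact binomial interval 13.5 to 424), and in R12016, whose uLPS library had no read, the lower end of that interval was 24.8. The level with MRS2578 in R12016 was 31.0-fold that of 3 reads, the limit that a count of 0 allows. This is a bound, not a measured fold, and leaves out counting error in the 94 reads. In R14143 the ratio was 0.688 (0.279 to 1.61) and in R02046 as labelled 0.457 (0.134 to 1.44), both intervals including 1. The intervals cover counting error alone. The fitted log2 fold change was 2.504 ± 1.14 with the deposited labels (adjusted p = 0.878), 3.00 ± 0.88 with the exchange (adjusted p = 0.153) and 3.31 ± 1.09 without R02046 (adjusted p = 0.296). PDK1, a HIF target, was 0.89 higher with MRS2578 in R07110, 0.55 lower in R14143 and within 0.03 of no difference in the other donors. The exons of PDK1 overlap those of an uncharacterised gene on the opposite strand. PDK3 was higher by 0.62, 0.18 and 0.15 in R07110, R12016 and R14143 and 0.41 lower in R02046.

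HIF1A was at 353, 588, 430 and 559 CPM with uLPS. It was at 392, 469, 513 and 465 CPM with MRS2578, so the spread between the donors was wider with uLPS alone and the directions were mixed. Its fitted change was -0.05 ± 0.13, -0.17 ± 0.10 with the exchange and -0.15 ± 0.13 without R02046. EGLN1, whose product hydroxylates HIF-1 alpha, was at 12.6, 22.7, 18.7 and 21.7 CPM with uLPS and at 20.04, 22.2, 18.2 and 13.6 CPM with MRS2578. It was 1.59-fold higher with MRS2578 in R07110 and 1.59-fold lower in R14143, with no clear difference in the other donors. EGLN3 had 6 to 30 reads per library. Its ratio was 2.25 in R07110 (95% interval 1.08 to 4.86) and 0.220 in R14143 (0.0749 to 0.537), and the intervals of R12016 and R02046 included 1.

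Among the other hypoxia-response genes, ADM came nearest to the threshold. It encodes adrenomedullin, a secreted vasodilator peptide, and was at 159, 233, 108 and 328 CPM with uLPS. With MRS2578 it was at 93.1, 69.3, 179 and 194 CPM. ADM was lower with MRS2578 by 1.71-fold in R07110, 3.36-fold in R12016 and 1.69-fold in R14143, and higher by 1.66-fold in R02046 as labelled. With the R02046 libraries exchanged it was therefore lower in 4 of 4 donors, although the groups still overlapped. The log2 fold change was -0.65 ± 0.36 with the deposited labels (adjusted p = 0.878), -0.997 ± 0.17 with the exchange (adjusted p = 0.0528) and -1.09 ± 0.21 without R02046 (adjusted p = 0.160). With the exchange, edgeR's likelihood ratio test put ADM (adjusted p = 3.51e-05) and SLC2A6 (adjusted p = 0.0215) past the threshold, and DESeq2's Wald test called the same pair of members (adjusted p = 1.11e-05 for ADM and 0.0129 for SLC2A6).

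NDRG1, a stress-induced gene and a common marker of hypoxia, was at 65.5, 29.1, 54.8 and 70.8 CPM with uLPS. With MRS2578 it was at 131, 97.1, 47.1 and 58.4 CPM, 2.00-fold higher in R07110, 3.34-fold higher in R12016 and slightly lower in the other donors. The log2 fold change was 0.56 ± 0.34 with the deposited labels (adjusted p = 0.878), 0.67 ± 0.29 with the exchange (adjusted p = 0.303) and 0.82 ± 0.36 without R02046 (adjusted p = 0.402). P4HA1, a collagen prolyl hydroxylase subunit, and MXI1, a MYC antagonist, shared these directions. P4HA1 was higher by 0.80 and 0.52 in R07110 and R12016 and lower by 0.17 and 0.18 in R02046 and R14143. MXI1, at 4.68 to 9.80 CPM, was higher by 0.76 and 0.46 and lower by 0.47 and 0.37. KDM3A, a histone demethylase, was higher in every donor as labelled, but by 0.0037 in R02046 and 0.0039 in R14143.

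VEGFA, the vascular endothelial growth factor, was at 52.0, 41.1, 43.0 and 175 CPM with uLPS. With MRS2578 it was at 60.2, 56.5, 50.9 and 51.9 CPM. A single library, R14143 with uLPS, thus stood apart, and the difference of -1.75 in that donor contrasted with differences of 0.21, 0.46 and 0.24 in the others. The fitted change was -0.19 ± 0.36, -0.32 ± 0.33 with the exchange, -0.35 ± 0.43 without R02046, and 0.30 with R14143 left out. The fibroblast marker sum was also highest in that library, with COL1A1 at 511 CPM there and at 178 CPM in the MRS2578 library of the same donor, and its part in the VEGFA value was not tested. BNIP3, a mitophagy receptor of the outer mitochondrial membrane, was at 49.7, 109, 43.2 and 81.3 CPM with uLPS and at 75.0, 107, 42.5 and 55.3 CPM with MRS2578, 0.59 higher in R07110 and 0.55 lower in R14143.

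**Figure D3:**
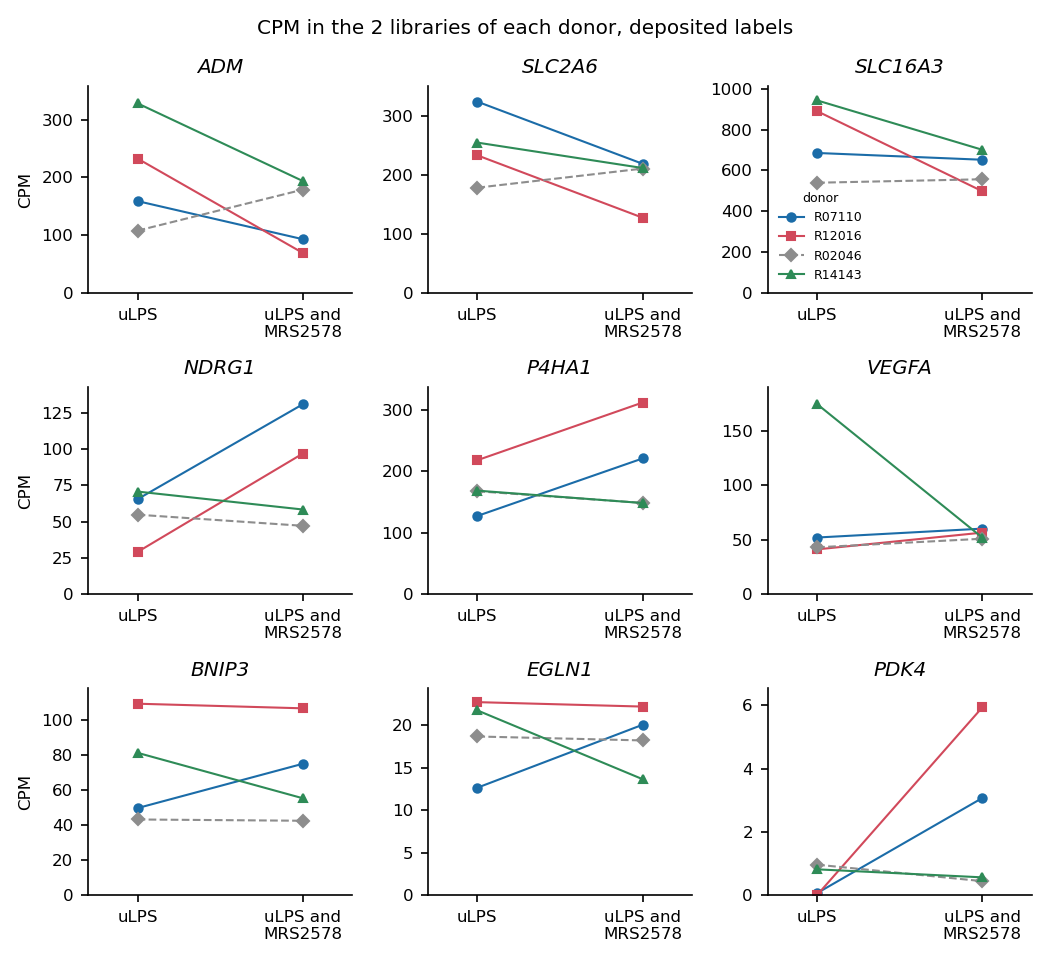
CPM of 9 members in the uLPS library and in the library with uLPS and MRS2578 of each donor, joined by a line, with the deposited labels. ADM, SLC2A6 and SLC16A3 are lower with MRS2578 in R12016 and R14143, NDRG1 and PDK4 are higher in R07110 and R12016 alone, and VEGFA is at 175 CPM in 1 uLPS library. R02046 is dashed because its labels are uncertain.

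The direction of the set differed between donors. In R07110, 30 of 36 members were higher with MRS2578, where 50.2% of all genes were, with a median difference of 0.18, and 11 members were over 0.5 higher on the log2 scale, where 8.85% of all genes were. The 2 members over 0.5 lower there were ADM and SLC2A6 (6.58% of all genes). In R14143, 7 of 36 were higher, where 46.7% of all genes were, with a median difference of -0.24, and 6 members were over 0.5 lower, where 12.8% of all genes were, and 0 over 0.5 higher, where 7.92% were. R12016 had 15 of 36 higher (49.8% of all genes), with 3 over 0.5 higher (16.3%) and 7 over 0.5 lower (11.8%). R02046 as labelled had 13 of 36 higher (49.8%), with 2 over 0.5 higher (10.7%) and 1 over 0.5 lower (11.8%). The members of one library share its depth and cell state, so these counts describe the donors and are no test of MRS2578.

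The glycolytic enzymes shared these directions. In R07110, 14 of 15 glycolytic enzymes were higher with MRS2578, by a median of 0.10, while 12 of 15 were lower in R14143, by a median of 0.17, 12 of 15 in R02046 as labelled and 10 of 15 in R12016. HIF1A, EGLN1 and EGLN3 were all higher in R07110 and all lower in R14143. PDK1, EGLN1, EGLN3 and BNIP3, 4 of the 36 members, were over 0.5 higher in R07110 and over 0.5 lower in R14143, as were 2.87% of all genes, and no member had the opposite pair of differences (0.445% of all genes). Altogether 25 of the 36 members were higher in R07110 and lower in R14143, a larger share than the 25.8% of all genes.

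A group of 8 of the 36 members was higher in R07110 and R12016 and lower in R02046 and R14143, against 12.9% of all genes. These 8 were ALDOA, ALDOC, ENO2, PDK1, PDK4, NDRG1, P4HA1 and MXI1. HK1 had the reverse order (10.9% of all genes). R07110 and R12016 are the males and R02046 and R14143 the females. With the R02046 libraries exchanged, the difference of R02046 in each of these 8 genes has the opposite sign. Sex cannot be told apart from other differences between these donors and was not tested. The mitochondrially encoded transcripts took 0.275% and 0.313% of counts in the uLPS libraries of R07110 and R12016 and 0.187% in each of their MRS2578 libraries, while they lay between 0.298% and 0.356% in all libraries of R02046 and R14143. Their part in the differences was not tested.

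**Figure D4:**
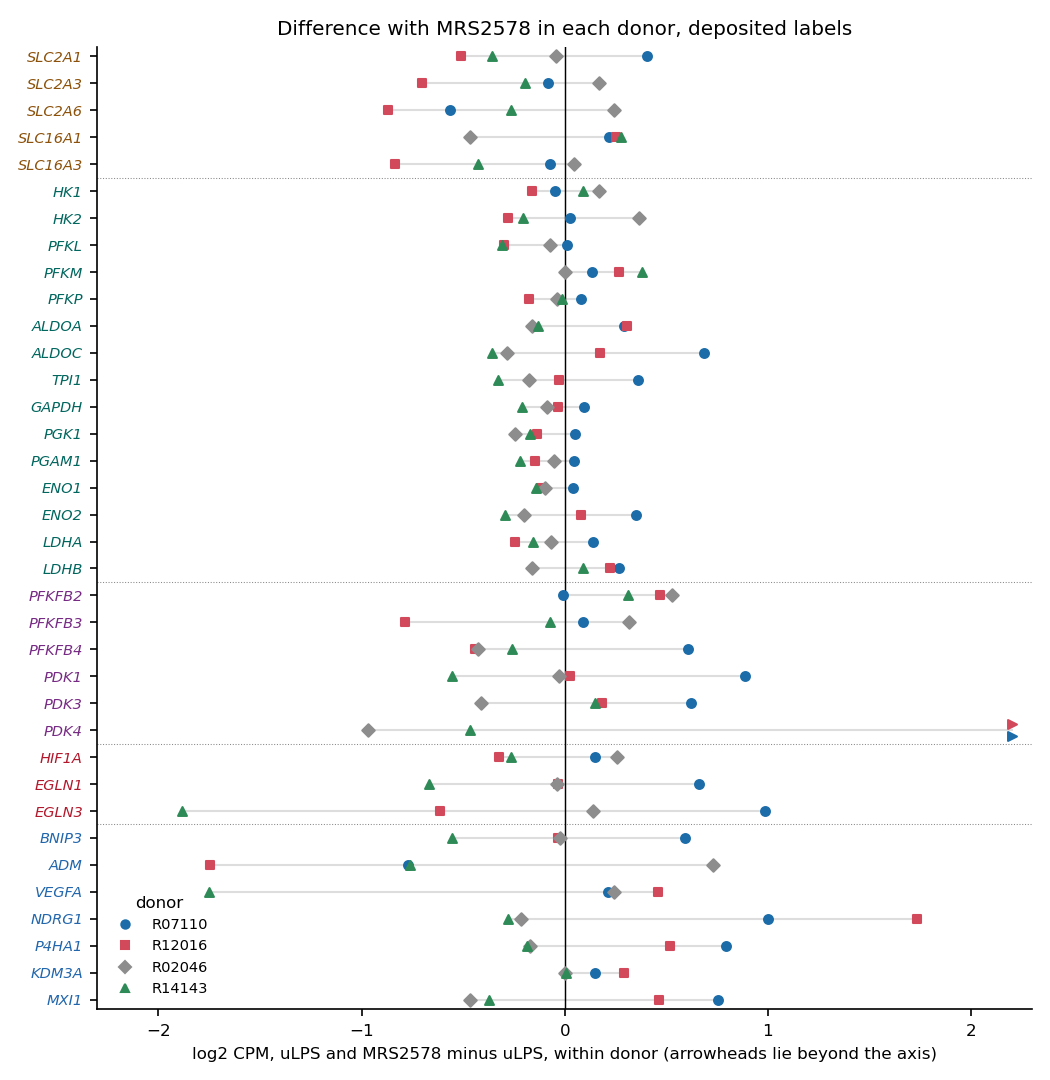
Within-donor difference in log2 CPM (uLPS and MRS2578 minus uLPS) of the 36 members, grouped by role, with 1 point per donor under the deposited labels and arrowheads for the PDK4 values of R07110 and R12016 beyond the axis. R07110 lies to the right of 0 for 30 members and R14143 to the left for 29.

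With the deposited labels, 2 members (PFKM and KDM3A) had the same direction in all 4 donors, as did 12.9% of all genes. With the exchange, 7 members did, as did 23.8% of all genes. SLC16A1, LDHB and PDK3 were higher with MRS2578 (10.6% of all genes were), and SLC2A3, SLC2A6, SLC16A3 and ADM were lower (13.2%). Over the 3 donors other than R02046, PFKM and KDM3A joined these to make 9 members, against 36.8% of all genes.

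Genes of the same pathways outside the set were examined as well. Of 15 tested genes for other glycolytic isoenzymes and glucose entry, 12 for pyruvate entry into mitochondria, 8 of the pentose phosphate pathway, 13 other HIF pathway components and 35 other HIF targets, 0 were called with the deposited labels. With the exchange the quasi-likelihood test called 1 of these 83 genes, against 0.618% of all genes, and 0 without the donor block. The gene called was HK3, a hexokinase of myeloid cells. The likelihood ratio and Wald tests with the exchange called 6 each, 2 higher and 4 lower, against 5.08% and 4.69% of all genes. The quasi-likelihood test with the exchange and without R14143 called 10 of 84, 4 higher and 6 lower, against 7.57% of all genes. HK3 was at 106, 60.6, 70.1 and 217 CPM with uLPS and at 51.4, 46.1, 163 and 108 CPM with MRS2578, a log2 change of -0.34 ± 0.37 as labelled (adjusted p = 0.919), -0.92 ± 0.14 with the exchange (adjusted p = 0.0390) and -0.82 without R02046 (adjusted p = 0.160). HMOX1, the heme oxygenase that is a target of both HIF-1 and NRF2, was at 447, 563, 1055 and 290 CPM with uLPS and at 1137, 2009, 825 and 488 CPM with MRS2578, with a fitted change of 0.90 ± 0.34, 1.07 ± 0.22 with the exchange (adjusted p = 0.0828) and 1.31 without R02046 (adjusted p = 0.138). With the exchange the likelihood ratio test (adjusted p = 0.000628) and the Wald test (adjusted p = 7.43e-05) called HMOX1. The quasi-likelihood test with the exchange put 3 of the 35 other HIF targets higher and 6 lower at an unadjusted p under 0.05. Over all genes the shares were 6.86% and 9.59%. Among the 6 lower were FLT1 (-1.10 ± 0.44) and ANGPTL4 (-1.02 ± 0.33). PDK2, the kinase not among the members, was higher with MRS2578 in 4 of 4 donors as labelled, at 2.17 to 2.77 CPM with uLPS and 4.30 to 6.89 CPM with MRS2578, a log2 change of 1.17 ± 0.23 (adjusted p = 0.878) as labelled, 0.87 ± 0.36 with the exchange (adjusted p = 0.282) and 1.27 without R02046 (adjusted p = 0.160). The median changes of these lists with the deposited labels ran from -0.06 for the other HIF pathway components to 0.01 for pyruvate entry.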

How the data were processed

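RNA was sequenced from 8 cultures, 1 per condition and donor, and the authors deposited whole-number read counts for each Ensembl gene of Mmul_10, without normalization. The study's methods name fastp, STAR and HTSeq with unique reads in exons, whereas the submitters' processing notes name Trimmomatic 0.30, TopHat2 2.0.14, SAMtools 1.3 and HTSeq 0.6.1p1. The strand setting is not given in the sources used here, so reads of overlapping genes could not be told apart. The counts of no 2 of the 28 library pairs agreed within sampling noise, the lowest chi-square per degree of freedom being 19.6.

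Members and gene lists were chosen with earlier results of these data known, so they are no independent evidence. Members were taken by symbol, and those with an unadjusted p under 0.05 in 1 of the 3 fits (deposited labels, R02046 exchanged, R02046 left out) were given full statistics. Outside this rule, GAPDH, LDHA, HIF1A and VEGFA were given library values and fitted changes, and EGLN1 and BNIP3 library values. From other lists, at most the 3 largest changes at that p were named. Genes were kept with filterByExpr (minimum count 10), scaled by TMM and tested with edgeR 4.0.16 (quasi-likelihood, donor as block, Benjamini-Hochberg adjustment over all genes) in R 4.3.3, with DESeq2 1.42.0 as an alternative. The SE was obtained from the estimate and its test statistic, and log2 CPM used a prior count of 2. Donors were blocked because both libraries came from 1 animal, and their deviations from the condition means correlated at 0.602, 0.552, 0.458 and 0.562. At 3 reads, the limit that a count of 0 allows, a gene is at 0.0913 to 0.320 CPM, for counting error only. Positions, exon lengths and sequences came from the RefSeq annotation of Mmul_10, where 36 members matched. The procedure was tested on simulated data. Alternatives were other scalings, tests and filters, no block, and each donor left out.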

Additional observations from a re-analysis of the deposited data

Results flagged for a closer look

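In 3 of the 72 groups of 4 libraries (36 members, 2 conditions), 1 library lay far from the other 3 by Dixon's ratio, which chance alone does in about 1 of 20 groups. VEGFA was at 175 CPM in R14143 with uLPS, against 41.1 to 52.0 CPM in the other uLPS libraries. SLC2A6 was at 127 CPM in R12016 with MRS2578, against 211 to 219 CPM in the others. PGK1 was at 589 CPM in R14143 with MRS2578, against 629 to 635 CPM in the others, a small gap in a tightly grouped gene.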

How the results depend on the processing

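With the deposited labels, 0 members were called in any fit, and the count over all genes was 0, or 1 with DESeq2's Wald test and 5 with the likelihood ratio test. With the exchange it was 75 genes, 78 with DESeq2 size factors, 39 with edgeR's earlier quasi-likelihood estimation (chosen after seeing the data), 569 with DESeq2's Wald test and 616 with the likelihood ratio test, the last 2 with 2 members each. With 1 donor left out, under either labelling, it ran from 0 to 918 genes and from 0 to 5 members, the upper values coming from the exchange without R14143. Members with 1 direction in every donor numbered 2, 7 with the exchange and 9 over the 3 donors other than R02046 (a count chosen after seeing the data). The replicate block, which pairs the libraries of a donor, mattered with the exchange, where 0 genes were called with no replicate block. With no replicate block the log2 fold change of ENO2 was 0.012 with the deposited labels, and the exchange with no replicate block put HK1 at -0.070, TPI1 at 0.038, PGK1 at 0.0011 and ENO2 at 0.091. Removal of the block changed no call of a member.

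Every other change of sign was in a member that was not called. At least 10 counts in every library put BNIP3 at 0.00053. The exchange put HK1 at -0.073, TPI1 at 0.045, ENO2 at 0.084, PFKFB4 at 0.070, EGLN1 at 0.0075 and BNIP3 at 0.0086. In the same order, the likelihood ratio test with the exchange gave -0.073, 0.045, 0.084, 0.078, 0.0021 and 0.0077, and DESeq2 size factors -0.079, 0.039, 0.078, 0.063, 0.00097 and 0.0020. DESeq2's Wald test gave -0.079, 0.039, 0.078 and 0.072 for the first 4 and 0.0010 for BNIP3. With 1 donor left out, under either labelling, log2 fold changes ran from -0.31 to 0.038 for SLC2A1, -0.13 to 0.074 for HK1, -0.28 to 0.064 for HK2, -0.079 to 0.041 for PFKP, -0.16 to 0.39 for ALDOC, -0.18 to 0.17 for TPI1, -0.11 to 0.048 for GAPDH, -0.19 to 0.049 for PGK1, -0.12 to 0.0050 for ENO1, -0.14 to 0.21 for ENO2, -0.16 to 0.023 for LDHA, -0.051 to 0.43 for PFKFB2, -0.39 to 0.12 for PFKFB3, -0.38 to 0.26 for PFKFB4, -0.19 to 0.34 for PDK1, -0.021 to 0.42 for PDK3, -0.28 to 0.051 for HIF1A, -0.25 to 0.23 for EGLN1, -1.09 to 0.29 for EGLN3, -0.21 to 0.20 for BNIP3, -0.59 to 0.30 for VEGFA and -0.12 to 0.59 for MXI1. Beyond the labels and the donors included, the cause of these changes was not tested. The median log2 fold change of the tested members ran from -0.14 to 0.14 over these fits, and the mean summed enzyme level with uLPS, 9211 CPM, was 9038 CPM on total counts and 9220 CPM with DESeq2 size factors, while single libraries moved by more.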
